A study of Macaca mulatta with 28 samples.

Results

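Histone and DNA modifying enzymes were examined as a group of 52 genes, chosen and classed by name. The classes were 7 methyltransferases of lysine 4 on histone H3 (H3K4), 10 other histone methyltransferases and 11 histone demethylases. Added to these were 11 deacetylases, 7 acetyltransferases, 3 DNA methyltransferases and 3 TET dioxygenases. Of the 52 members, 49 had an entry among 16885 gene symbols in the count table, and 44 were among the 13769 transcripts tested. SETD1A, HDAC8 and KAT2A were not analysed here. KMT2B was named when the group was chosen because its difference in cohort 1 was already known, so that difference is given as a description of these animals.

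RNA had been sequenced from the ventral tegmental area (VTA) of 28 adult male rhesus macaques, with 1 library per animal. The 17 drinkers had self-administered ethanol, first with 12 months of open access for 22 hours per day and then in further periods of renewed access that alternated with forced abstinence, and were sampled at the end of the last abstinence of 30 days, while the 11 controls were calorically yoked or housing controls. All were wild type. There were 8 drinkers with 8 controls in cohort 1 and 9 drinkers with 3 controls in cohort 2, and the labels graded the cohort 1 drinkers as Heavy (4), Very Heavy (3) or Low (1) and those of cohort 2 as Very Heavy (6), Binge (2) or Heavy (1).

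Histones are the proteins around which DNA is wound, and these enzymes add or remove methyl and acetyl groups on them or on DNA itself. Methylation of H3K4 marks promoters and enhancers of active genes, acetylation generally accompanies open chromatin, and DNA methylation at CpG sites often accompanies silencing. KMT2A and KMT2B are paralogs that act mainly at promoters, and KMT2C and KMT2D are paralogs that act mainly at enhancers.

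KMT2A and KMT2B differ in base composition, and GC content is set beside the measurements below. The last coding exon of each gene, which encodes the end of the catalytic SET domain, is shown with CpG sites in capitals, read from the RefSeq annotation of Mmul_10 on the plus strand (KMT2A at chr14:111588158-111588430, KMT2B at chr19:35151450-35151722).
KMT2A: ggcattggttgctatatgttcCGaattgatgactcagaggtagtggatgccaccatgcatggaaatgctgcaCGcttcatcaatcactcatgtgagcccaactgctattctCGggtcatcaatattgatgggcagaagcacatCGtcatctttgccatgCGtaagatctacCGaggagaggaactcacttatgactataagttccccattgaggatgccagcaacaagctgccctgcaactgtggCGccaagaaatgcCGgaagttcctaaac
KMT2B: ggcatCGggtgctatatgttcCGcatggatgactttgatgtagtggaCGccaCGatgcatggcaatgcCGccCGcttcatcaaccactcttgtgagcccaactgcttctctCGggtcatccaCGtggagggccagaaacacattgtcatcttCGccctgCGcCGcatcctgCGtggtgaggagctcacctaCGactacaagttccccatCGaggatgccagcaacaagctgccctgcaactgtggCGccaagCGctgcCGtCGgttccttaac
The exons are 273 bases long and identical at 226 positions (82.8%). Of the 47 positions that differ, 31 hold A or T in KMT2A and G or C in KMT2B, 5 the reverse, and 34 lie at position 3 of a codon. This exon held 8 CpG sites and 48.4% GC in KMT2A, and 18 CpG sites and 57.9% GC in KMT2B. Over the whole transcript, GC content was 46.9% in KMT2A, 63.9% in KMT2B, 59.5% in KMT2D and 44.6% in KMT2C.

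Total counts per animal lay between 12303914 and 27338669. All 8 dopamine neuron markers, among them TH and SLC6A3, were tested, and their summed level ranged from 19.8 to 1674 CPM (counts scaled to the normalized library size). Its median was 302 CPM in controls and 229 CPM in drinkers of cohort 1, and 230 and 139 CPM in cohort 2. For 3 GABA neuron markers the medians were 242 CPM in controls and 290 CPM in drinkers of cohort 1, and 261 and 200 CPM in cohort 2. In cohort 1 the summed level of 3 general neuron markers was 397 to 1191 CPM in controls (median 739) and 731 to 1489 CPM in drinkers (median 1003). In cohort 2 the medians were 759 CPM in controls and 687 CPM in drinkers. The median sum of 2 glutamate neuron markers was 104 CPM in controls and 156 CPM in drinkers of cohort 1, and 139 and 122 CPM in cohort 2. In cohort 1 that of 5 oligodendrocyte markers was 12041 to 21120 CPM in controls (median 17936) and 11530 to 20220 CPM in drinkers (median 15875). The part of these cell types in the results was not tested, and in bulk tissue fewer cells of a type and less RNA per cell cannot be told apart. CPM values are not divided by transcript length, so they are compared between animals and not between genes.

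Whether the enzymes differed between drinkers and controls was asked in each cohort by edgeR's quasi-likelihood test with Benjamini-Hochberg adjustment over all transcripts tested. In cohort 1, 1 of 44 members, KMT2B, had an adjusted p under 0.05, against 0.0363% of all transcripts. Since KMT2B was named for this difference, nothing is read from that count, and no other member passed. At an unadjusted p under 0.05, 6 of 44 members were lower in drinkers and 0 were higher, against 6.27% and 5.35% of all transcripts. The 6 include KMT2B. HDAC3 and KDM5B, also among them, were at 0 in all 8 drinkers and in 6 of 8 controls. Nothing is read from this count either. The count of lower members was 10 without drinker 8 and 3 with both the GC and the length trend described below subtracted. The shares of all transcripts lower in those fits are not given here, so nothing is read from the 10 or the 3. In cohort 2, 0 of 44 members passed at either level without correction for GC content or length, against 0.0% of all transcripts at the adjusted level and 1.9% lower and 2.07% higher (3.97% together) at the unadjusted level. Over all transcripts of cohort 2, DESeq2's Wald test called 23 and limma-voom 3.

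KMT2B (ENSMMUT00000003382.4, chromosome 19 of Mmul_10 from 35131201 to 35152046) was lower in every cohort 1 drinker than in every cohort 1 control. Its level in cohort 1 controls ran from 55.2 to 62.2 CPM with a median of 57.8, a mean of 58.0 ± 2.31 (SD, n = 8). In cohort 1 drinkers it ran from 28.1 to 44.3 CPM with a median of 42.0, a mean of 40.3 ± 5.18 (SD, n = 8). The groups did not overlap, which in this direction held for 0.109% of all transcripts tested (0.0726% in the other direction) and for no other member. In cohort 2 no member's groups were apart, against 0.341% of transcripts with drinkers lower and 0.283% with drinkers higher. The fitted log2 fold change was -0.52 (SE 0.081), or 0.696 times the control level, with an adjusted p of 0.0300. Drinker 10 was the lowest at 28.1 CPM, and the other 7 drinkers lay between 38.9 and 44.3 CPM.

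As a description, the adjusted p of KMT2B was close to 0.05. Leaving out each of the 16 animals in turn kept the log2 fold change between -0.54 and -0.46, while the adjusted p ran from 0.00176 to 0.0962 and stayed under 0.05 in 3 of 16 fits, those without control 3, drinker 3 or drinker 10. By label, the 4 Heavy drinkers of cohort 1 lay between 40.9 and 44.3 CPM, the 3 Very Heavy between 28.1 and 43.6 CPM, and the Low drinker was at 38.9 CPM.

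In cohort 2 the direction was not the same. KMT2B was at 42.5, 53.4 and 55.8 CPM in the 3 controls and ran from 47.5 to 65.9 CPM in the 9 drinkers (median 56.3), and the groups overlapped. Its log2 fold change there was 0.15 (SE 0.11, unadjusted p = 0.177 and adjusted p = 1.0 in edgeR's quasi-likelihood test). The drinker difference in cohort 2 exceeded that in cohort 1 by 0.67 on the log2 scale (SE 0.13), with an adjusted p of 0.0916 for the edgeR interaction term, above the threshold, and of 0.000343 in DESeq2's Wald test. The cohort 1 side of this difference, which also enters the comparison over all animals, was known when KMT2B was named, so these p-values are no independent evidence. Over all 28 animals the log2 fold change was -0.20 (SE 0.094, adjusted p = 1.0 in edgeR's test).

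**Figure D1:**
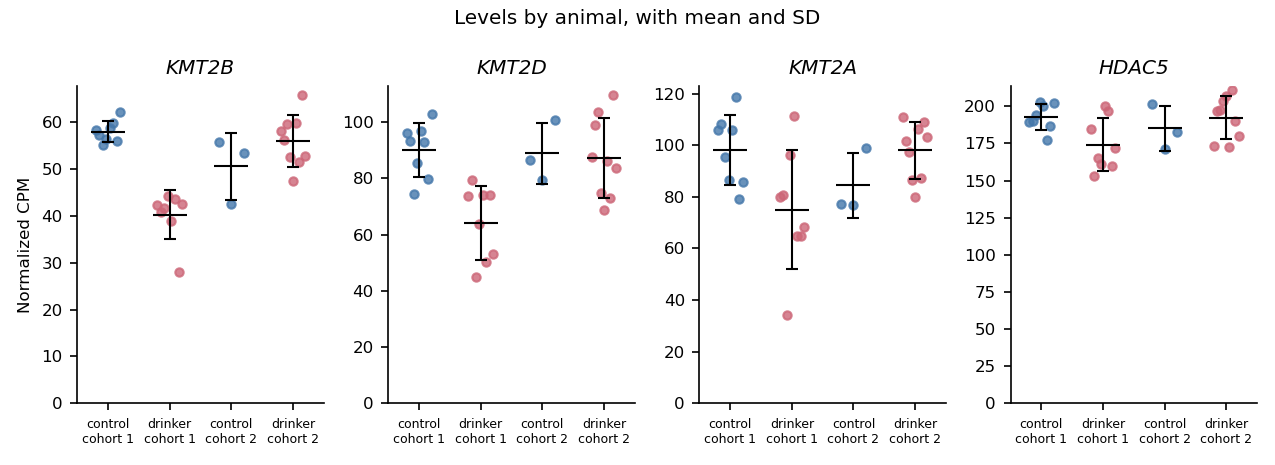
Normalized CPM (y axis, from 0) of KMT2B, KMT2D, KMT2A and HDAC5 in each animal (points) by group and cohort (x axis), with the group mean (horizontal line) and SD (bar). KMT2B of cohort 1 drinkers, at 28.1 to 44.3 CPM, lies below all cohort 1 controls, at 55.2 to 62.2 CPM, and the groups of the other panels overlap.

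KMT2D, which methylates H3K4 at enhancers, was also lower in cohort 1 drinkers at an unadjusted p under 0.05. It ran from 74.4 to 102.9 CPM in controls (median 93.3) and from 45.0 to 79.4 CPM in drinkers (median 68.7). The groups overlapped through control 3 at 74.4 CPM and drinker 4 at 79.4 CPM. The log2 fold change was -0.49 (SE 0.12, unadjusted p = 0.000604, adjusted p = 0.136 in edgeR's test), and DESeq2's Wald test gave an adjusted p of 0.0121. In cohort 2 it was at 79.6, 86.5 and 100.8 CPM in controls and from 68.8 to 109.7 CPM in drinkers (median 86.3), a log2 fold change of -0.02 (SE 0.14).

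KMT2A, the paralog of KMT2B, had a wider spread in cohort 1 than KMT2B and KMT2D. It ran from 79.1 to 118.7 CPM in cohort 1 controls (median 101) and from 34.4 to 111.5 CPM in cohort 1 drinkers (median 74.1). The lowest value belonged to drinker 5, which was also the lowest for KMT2D at 45.0 CPM, and the groups overlapped. The log2 fold change was -0.39 (SE 0.17, unadjusted p = 0.0385, adjusted p = 0.385 in edgeR's test). In cohort 2, KMT2A was at 76.9, 77.2 and 99.1 CPM in controls and from 80.1 to 111.1 CPM in drinkers (median 102), a log2 fold change of 0.22 (SE 0.12, unadjusted p = 0.0803). This p for KMT2A in cohort 2 was 0.055 with the GC trend described below subtracted, 0.00771 with the length trend, 0.00803 with both (log2 fold change 0.26) and 0.00947 with the GC slope as a covariate (0.29), each with an adjusted p of 1.0 in edgeR's test. EHMT2 also had an unadjusted p under 0.05 in cohort 2 in the last of these fits (0.21, p = 0.0454 in edgeR's test). Shares of all transcripts under 0.05 in these fits are not given here, so nothing is read from these p-values. For KMT2D and KMT2A the difference between the cohorts was 0.47 (SE 0.19) and 0.60 (SE 0.25) on the log2 scale, with adjusted p-values of 0.413 and 0.407 in edgeR's test.

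Across the 6 H3K4 methyltransferases tested, 5 had a log2 fold change below 0 in cohort 1, 3 of them at an unadjusted p under 0.05 (6.27% of all transcripts were lower at that level), and their median was -0.43. These counts include KMT2B, whose cohort 1 value was known when the group was chosen, so nothing is read from them for the class. In cohort 2, 2 were below 0 and the median was 0.09. SETD1B, the catalytic subunit of another H3K4 methyltransferase complex, had a cohort 1 log2 fold change of -0.28 (SE 0.14) and a cohort 2 value of 0.02. KMT2C was listed at 0 in 3 animals, all of them cohort 1 drinkers, and ran from 9.21 to 103.7 CPM in the other 25. KMT2E was the member above 0, at 0.85 (SE 0.79) in cohort 1 and 0.84 in cohort 2, and it was listed at 0 in 3 animals. Its place in this class rests on its name, and enzyme activity was not tested.

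Among deacetylases, which remove acetyl groups from histones and other proteins, HDAC5 passed an unadjusted p of 0.05 in cohort 1. HDAC5, a class IIa enzyme that shuttles between nucleus and cytoplasm, ran from 177 to 203 CPM in controls (median 192) and from 153 to 200.1 CPM in drinkers (median 169). The groups overlapped, and the log2 fold change was -0.14 (SE 0.062, unadjusted p = 0.0314, adjusted p = 0.356 in edgeR's test), but its direction turned with the GC trend (0.0096) or both trends (0.0903) subtracted. In cohort 2 it was at 171, 183 and 202 CPM in controls and from 173 to 211 CPM in drinkers (median 197), a log2 fold change of 0.06 (unadjusted p = 0.465). The 5 deacetylases listed at 0 in fewer than 5 animals (HDAC1, HDAC4, HDAC5, HDAC11 and the NAD-dependent SIRT1) had log2 fold changes from -0.61 to 0.13 in cohort 1.

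In the other classes 0 members listed at 0 in fewer than 5 animals passed an unadjusted p of 0.05 in either cohort. The 5 other histone methyltransferases of this kind were EHMT2 and SUV39H1, which methylate lysine 9 of histone H3, SETDB1, which acts on the same residue, EZH1, a Polycomb subunit, and NSD1, which methylates lysine 36, and they lay between -0.59 and 0.06 in cohort 1. The 5 demethylases (KDM1A, KDM3B, KDM4A, KDM4B and KDM5A) lay between -0.30 and 0.16. Of the acetyltransferases, CREBBP, a transcriptional coactivator, KAT2B, KAT5 and KAT6A lay between -0.37 and 0.04. DNMT1, which maintains DNA methylation after replication, and DNMT3A, which sets it anew, were at -0.11 and -0.18 in cohort 1 and at 0.15 and 0.20 in cohort 2. TET2, which oxidizes 5-methylcytosine, was at -0.26 in cohort 1 (unadjusted p = 0.0555) and 0.21 in cohort 2.

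Over the 28 members listed at 0 in fewer than 5 animals, 21 had a log2 fold change below 0 in cohort 1 and 6 in cohort 2, beside 5271 and 4867 of the 10163 transcripts meeting the same condition. Their median was -0.18 in cohort 1 and 0.10 in cohort 2, beside -0.01 and 0.01 over those transcripts. With both the GC and the length trend subtracted, the cohort 1 median was -0.02 with 16 of 28 below 0, beside a median of -0.02 with 5439 of the 10163 below 0. At an unadjusted p under 0.05, 3 of the 28 (KMT2A, KMT2B and KMT2D) differed between the cohorts, all with a higher value in cohort 2, against 4.93% of all transcripts in that direction, 4.69% in the other and 9.62% together, and 467 of the 10163 transcripts at 0 in fewer than 5 animals. No member's difference between the cohorts had an adjusted p under 0.05 in edgeR's test, against 0.0145% of transcripts. Over all 28 animals the median of the 28 members was -0.01, and 2 of them (KMT2B and KMT2D) were lower at an unadjusted p under 0.05, against 2.05% of all transcripts (2.52% higher, 4.57% together) and 217 of those 10163. Both counts include KMT2B through its cohort 1 difference, so nothing is read from them. The cohorts share no animals, and the pooled comparison shares its animals with both.

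**Figure D2:**
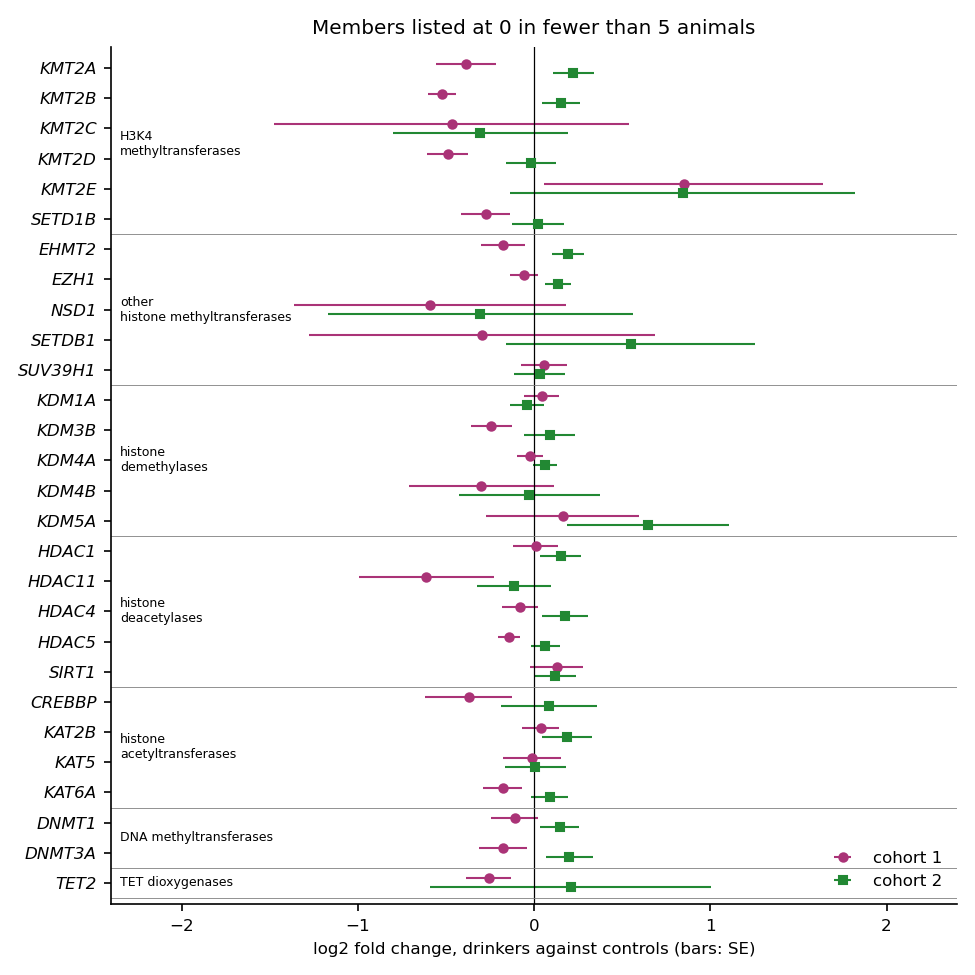
Log2 fold change of drinkers against controls (x axis, bars SE) for the 28 members listed at 0 in fewer than 5 animals (y axis, by enzyme class), in cohort 1 (circles) and cohort 2 (squares). Most cohort 1 values lie left of 0 (21 of 28) and most cohort 2 values right of it (22 of 28), without correction for GC content or length (16 of 28 cohort 1 values lie below 0 after both), and the bars of KMT2C, KMT2E, NSD1 and SETDB1 are wide.

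The remaining members were at 0 in 5 or more animals, a chosen cut, and are given no fold change. Of the 49 members with an entry, 23 had counts in every animal, 5 were at 0 in 1 to 4 animals and 21 were at 0 in 5 or more. KDM3A, a lysine 9 demethylase, was listed at 0 in all 28 animals, and EHMT1, NSD2, HDAC7 and DNMT3B in 26. Members that passed the count filter but were listed at 0 in 5 or more animals were HDAC3 (24), KDM2A (23), KDM5B (23), HDAC9 (20), KDM5C (16), TET1 (16), TET3 (15), KDM2B (13), EZH2 (11), DOT1L (11), HDAC6 (11), EP300 (11), SETD2 (10), KDM6B (8), HDAC2 (8) and KAT6B (5). HDAC3 and KDM5B, the members of this kind with an unadjusted p under 0.05 in cohort 1, were at 0 in all 8 drinkers and in 6 of 8 controls. EP300, the acetyltransferase paralogous to CREBBP, was at 0 in 4 drinkers and 1 control of cohort 1 and in 4 drinkers and 2 controls of cohort 2. It ran from 12.4 to 44.3 CPM in the other 17 animals. Its highest level was 14.7 CPM in drinkers and 44.3 CPM in controls of cohort 1, and 39.1 and 38.2 CPM in cohort 2. In cohort 1, 13 of these 16 members were at 0 in a larger share of drinkers than of controls (81.2%), beside 57.8% of the 3606 transcripts of the same kind. In cohort 2 it was 6 of 16 (37.5%), beside 46.8% of those transcripts, and 8 members were at 0 in a larger share of controls. Each value is the count of 1 listed transcript, so a count of 0 does not show that the gene was silent.

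Whether base composition of the libraries moved with the groups was asked next, because KMT2B is rich in GC. A GC slope was taken for each library as the change of its log2 CPM, relative to its cohort's mean, per 10 percentage points of transcript GC content, over transcripts that are not members. Drinkers of cohort 1 had a mean slope of -0.0557 ± 0.0415 (SD, n = 8) and controls one of 0.0557 ± 0.0601 (SD, n = 8), with p = 0.00109 in an exact permutation test, two-sided, so GC-rich transcripts had lower counts in drinker libraries. The ranges overlapped, from -0.0978 to 0.0148 in drinkers and from -0.0230 to 0.155 in controls. In cohort 2 the mean slope of drinkers was 0.00638 ± 0.0463 (SD, n = 9) and that of controls -0.0191 ± 0.0488 (SD, n = 3) (exact permutation p = 0.441, where the smallest p possible is 0.00455). The cohort 1 fold changes restate this slope, since both come from the same counts. Over all transcripts their median was 0.13 in the quartile lowest in GC. It was -0.19 in the quartile highest in GC, where KMT2B, KMT2D, SETD1B and HDAC5 lie.

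Whether KMT2B followed the GC slope from animal to animal was read within groups, since its levels in cohort 1 fall into separate clusters and a pooled correlation would restate the group difference. Among the 8 cohort 1 drinkers, Pearson's r was 0.221 and Spearman's rho -0.0238 (exact permutation p = 0.715 and 0.977). Among the 8 cohort 1 controls, r was -0.156 and rho -0.286 (exact permutation p = 0.710 and 0.501), and over the 12 animals of cohort 2, r was -0.208 and rho -0.280 (permutation p = 0.520 and 0.379). The adjusted p for r was 0.715 in each of these 3, in a family of 4 whose other member, the 16 animals of cohort 1 pooled, had an adjusted p of 0.0130 that holds the difference between the groups. Without the 2 animals farthest from the median slope, r was -0.0444, 0.286 and 0.117 in the same order, so no relation was detected within these groups of 8 to 12 animals.

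**Figure D3:**
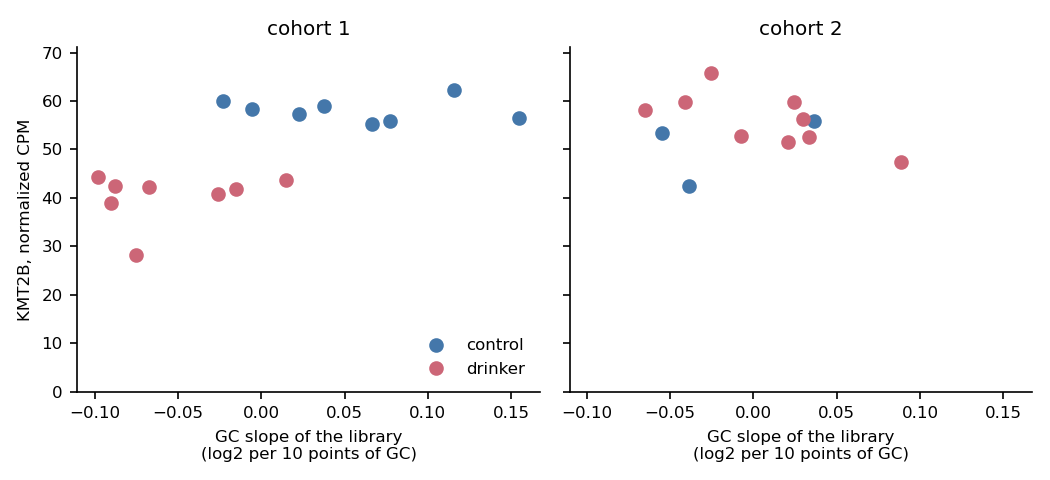
KMT2B level in normalized CPM (y axis, from 0) against the GC slope of the library in log2 per 10 percentage points of GC (x axis), 1 point per animal, by group, in cohort 1 and cohort 2. In cohort 1 drinkers sit at lower slopes and lower KMT2B than controls, and within each group no relation is seen (r = 0.221 and -0.156).

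The smooth trend of counts on GC content was then subtracted from each library. After this, KMT2B was at -0.33 (SE 0.081) in cohort 1, with an unadjusted p of 0.000949 and an adjusted p of 0.455 in edgeR's test, so the value moved by more than 1.5 times and the call was lost. KMT2D was at -0.36 (unadjusted p = 0.00885) and KMT2A, with a GC content below the median of 50.6%, at -0.43 (unadjusted p = 0.0182). HDAC5 was at 0.01. With the GC slope as a covariate instead, KMT2B was at -0.50 (SE 0.12), and 2 of the others moved away from 0, KMT2A to -0.84 (SE 0.23, unadjusted p = 0.00197), by over 1.5 times, and KMT2D to -0.65 (SE 0.18, unadjusted p = 0.00218). In that fit 9 of 44 members were lower at an unadjusted p under 0.05, beside 3.58% of all transcripts. They were KMT2B, KMT2A, KMT2D, SETD1B (-0.51), CREBBP (-0.96), KAT6A (-0.40), TET2 (-0.42) and, among members at 0 in 5 or more animals, KDM5B and HDAC9. KMT2B was named for its cohort 1 difference, so nothing is read from this count. The covariate itself differed between the groups, and this fit left the length trend in. HDAC5 was at -0.07, and the adjusted p-values of KMT2B, KMT2A and KMT2D were 0.334, 0.495 and 0.495 in edgeR's test.

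**Figure D4:**
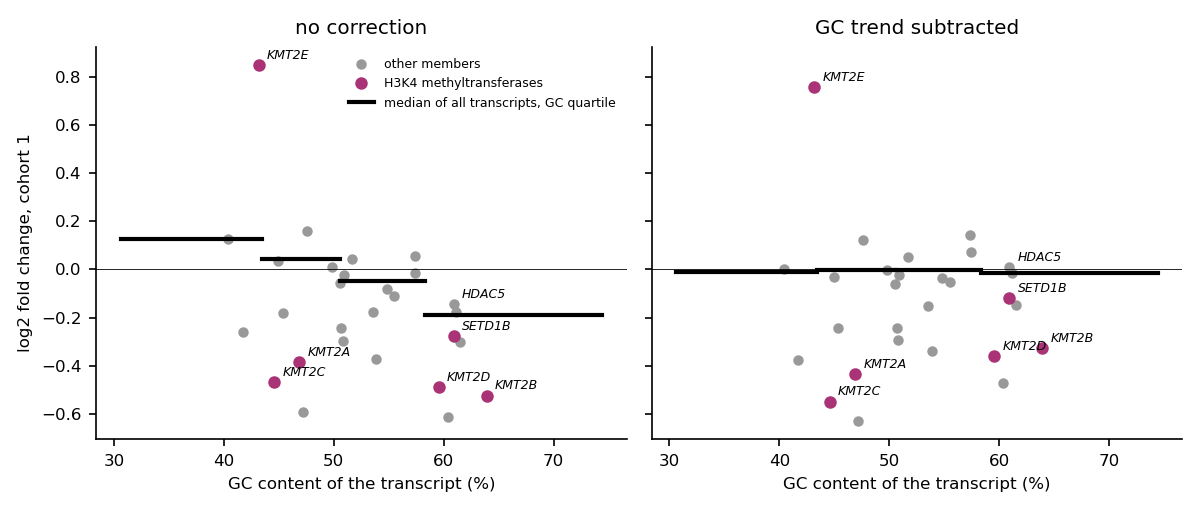
Cohort 1 log2 fold change (y axis) against transcript GC content in percent (x axis) for 28 members (points, H3K4 methyltransferases in purple), without correction and with the GC trend subtracted, with the median of all transcripts in each quartile of GC content (black lines). The medians run from 0.13 to -0.19 without correction and lie near 0 after it, and after it the 6 H3K4 methyltransferases are at -0.55 (KMT2C), -0.43 (KMT2A), -0.36 (KMT2D), -0.33 (KMT2B), -0.12 (SETD1B) and 0.76 (KMT2E).

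By the longest RefSeq transcript of each symbol, the members were also longer than other transcripts. The median was 6052.5 bases for the 28 members and 3092 for 9829 transcripts of the same kind. KMT2A (16690 bases), KMT2B (8472 bases) and KMT2D (20728 bases) lay at or above percentile 94.8 of length. Across the 28 members, cohort 1 fold changes had a Spearman correlation of -0.57 with length and -0.30 with GC content. Over the 9829 transcripts it was -0.11 and -0.40, as a description over genes that share libraries. With both trends subtracted, as below, the correlation with length was still -0.47 across the members and 0.00034 over the 9829 transcripts. A length slope, on the log2 scale per doubling of length, averaged -0.0304 ± 0.0826 (SD, n = 8) over cohort 1 drinkers and 0.0304 ± 0.0488 (SD, n = 8) over their controls, and this difference did not pass the threshold (exact permutation p = 0.0917). The ranges overlapped, from -0.186 to 0.0682 in drinkers and from -0.0545 to 0.0891 in controls, and the 3 lowest of the cohort were drinkers 9, 10 and 11. With both the GC and the length trend subtracted, KMT2B was at -0.18 (SE 0.096, unadjusted p = 0.0735, adjusted p = 0.765 in edgeR's test), KMT2D at -0.20 (unadjusted p = 0.113) and KMT2A at -0.29 (unadjusted p = 0.0787). The 3 members lower at an unadjusted p under 0.05 in this fit were TET2 (-0.28, p = 0.0143 in edgeR's test), HDAC3 and KDM5B. The last pair were listed at 0 in most animals. The share of all transcripts lower in this fit is not given here, so nothing is read from the count. An earlier version of the trends, fitted also on transcripts at 0 in some animals, gave -0.16 for KMT2B and 0.01 for the median of the members.

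**Figure D5:**
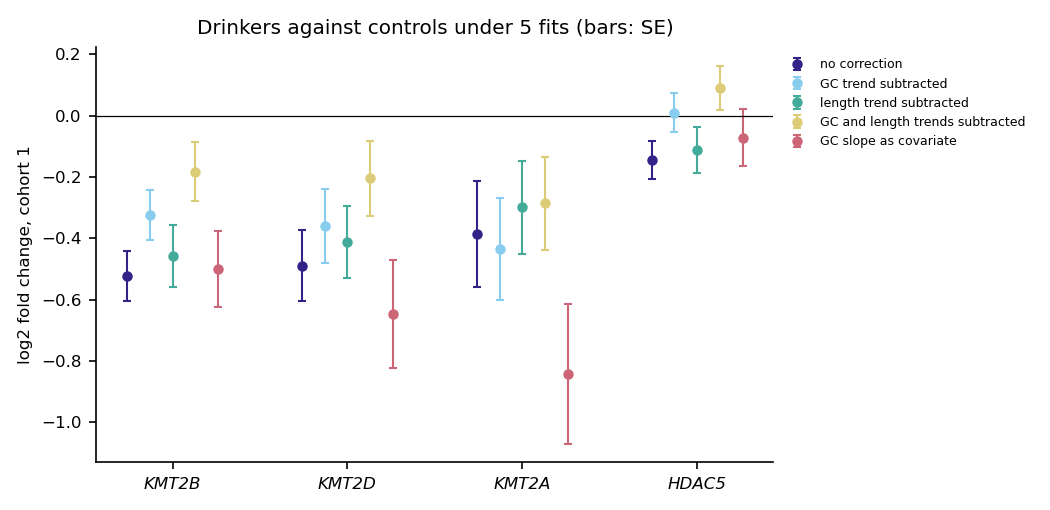
Cohort 1 log2 fold change (y axis, bars SE) of KMT2B, KMT2D, KMT2A and HDAC5 under 5 fits: no correction, GC trend, length trend or both subtracted, and the GC slope as covariate. KMT2B moves from -0.52 to -0.18 with both trends subtracted and stays at -0.50 with the covariate.

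Genes that work with these enzymes were read in the same fits. Of 43 other chromatin enzymes, 41 were tested, and in cohort 1, 2 were lower and 4 higher at an unadjusted p under 0.05, beside 6.27% and 5.35% of all transcripts, with a median log2 fold change of -0.01. Of 56 complex partners and readers, 51 were tested, 7 were lower and 2 higher, beside the same shares, with a median of -0.08. None of either list had an adjusted p under 0.05 in edgeR's test in any of the 4 comparisons.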

How the data were processed

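RNA-seq libraries of 28 animals were analysed. Reads were trimmed with Trim Galore 0.6.7 and quantified with Salmon 1.9.0 on Mmul_10, and DESeq2 1.36.0 is also named, per the submitters' processing notes. The values the authors deposited are unnormalized estimated counts of 1 listed Ensembl transcript per gene symbol, so counts on other isoforms are not part of a value. Whether Salmon's GC-bias correction was used is not given in the sources used here. Estimated counts were rounded, 1 entry without a symbol (1.16e-05 percent of counts) was left out, and a transcript was kept if 3 or more animals had 5 or more counts (13769). Groups came from the labels and cohorts from the study's Source Data. Each library is a separate animal, and the most similar pair of libraries had identical counts for 14.4% of transcripts.

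The comparison of drinkers with controls used edgeR 4.0.16 (TMM, quasi-likelihood test, Benjamini-Hochberg adjustment) within each cohort, over all animals, and with an interaction of group and cohort. DESeq2 1.42.0, limma 3.58.1 (voom), R 4.3.3, Python 3.11.15 and scipy 1.17.1 were also used. GC content and length are those of the longest RefSeq transcript of each symbol (13270 of 13769, 96.4%). They can differ from those of the listed Ensembl transcript that was counted. The fits were tested on simulated counts with known changes.

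The GC and length trends (natural splines per library) were run in 2 versions. The first was fitted on transcripts with a mean of at least 10 counts and left cohort 1 fold changes correlated with length in the opposite direction (Spearman's rho from -0.11 to 0.11 with the length trend subtracted). The second added the condition of a count in every animal of the fit and left a rho of -0.0037 with the length trend subtracted. With both trends rho was 0.13 in the first version and 0.00034 in the second. Over the 28 members the second version left rho with length at -0.53 with the length trend and -0.47 with both, beside -0.57 without correction. The second was written after the members' values under the first had been seen, was chosen for the remaining trend, and gives the values in the text. The first is kept beside it, and subtracting length at all was added after seeing the data.

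The members and lists were chosen with earlier results of these data known. Named are KMT2B, members with an unadjusted p under 0.05 in any comparison, and close paralogs, and members at 0 in 5 or more animals get no fold change. SETD1B, TET2, DNMT1, DNMT3A and KMT2E were given values after these were seen. Permutation tests of slopes were exact, and those of correlations were exact up to 9 animals and used 100000 resamples above that. The alternatives are given in the closing section.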

Additional observations from a re-analysis of the deposited data

Results flagged for a closer look

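KMT2B, KMT2D and KMT2A were picked out because their drinker difference differed between the cohorts at an unadjusted p under 0.05 for the interaction of group and cohort, by 0.67, 0.47 and 0.60 on the log2 scale (cohort 2 minus cohort 1). The cohort 1 side of the KMT2B difference was known when the gene was named, so its place here is no independent evidence. None had an adjusted p under 0.05 in edgeR's quasi-likelihood test. With the GC and length trends subtracted the differences were 0.31, 0.21 and 0.54, with adjusted p-values of 0.670, 0.944 and 0.604 in the same test. With the GC slope as a covariate they were 0.71, 0.73 and 1.09, with adjusted p-values of 0.211, 0.343 and 0.211.

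Within the 8 drinkers of cohort 1, drinker 10 stood apart from the others for KMT2B, at 28.1 CPM, and drinker 5 for KMT2A, at 34.4 CPM, by Dixon's test on the log2 scale. Chance picks out about 1 in 20 groups in this way. Without drinker 10 the log2 fold change of KMT2B was -0.46 (adjusted p = 0.00176 in edgeR's test), and without drinker 5 that of KMT2A was -0.28.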

How the results depend on the processing

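The number of transcripts with an adjusted p under 0.05 was 5 in cohort 1, 0 in cohort 2, 0 over all animals and 2 for the difference between the cohorts. DESeq2's Wald test gave 234, 23, 11 and 129. In cohort 1, limma-voom, no filter, and at least 10 counts in every animal each gave 3, the GC slope as covariate 2, the GC trend 2 (1 in the first version), and the length trend or both trends 1 in either version. In cohort 2 limma-voom gave 3. For the difference between the cohorts, every GC or length trend, in either version, and the GC slope as covariate gave 0. KMT2B in cohort 1 lost its call with the GC trend (-0.33, first version -0.36), the length trend (-0.46, first version -0.42), both (-0.18, first version -0.16) and the GC slope as covariate (-0.50), and kept it under the other 6 alternatives that use all 16 animals. Its difference between the cohorts passed only in DESeq2's Wald test (0.66). HDAC5 turned positive with the GC trend (0.0096) and with both trends (0.0903, first version 0.12). The count of members lower in cohort 1 (6) was 3 with at least 10 counts in every animal and 3 with both trends (2 in the first version). Shares of all transcripts lower in those fits are not given here, so nothing is read from these counts. The members' median turned from -0.18 to 0.015 with both trends in the first version. Leaving out single animals gave 1 to 4 transcripts in cohort 1, 0 to 1 in cohort 2, 0 to 0 over all animals and, where only the 3 controls of cohort 2 were left out in turn, 0 to 4 for the difference. KMT2B then lay between -0.54 and -0.46 in cohort 1, 0.04 and 0.23 in cohort 2, -0.24 and -0.17 over all animals, and 0.56 and 0.75 for the difference (3 controls of cohort 2 only), and the call in cohort 1 was lost without any of the other 13 animals. The count of lower members lay between 5 and 10 and the median between -0.19 and -0.13. No share of all transcripts is given beside that count, so nothing is read from it. The 3 controls of cohort 2 limit that comparison. No paired analysis was possible because the labels used here do not say which control was yoked to which drinker, although caloric controls were yoked to drinkers by design, and the replicate numbers tie no animals.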
